A study of Sus scrofa with 297 samples.

Results

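Liver gene expression was compared between pigs whose animal number lay between 2700 and 2799 (number series 27, 20 pigs) and pigs numbered between 2300 and 2399 (number series 23, 31 pigs), out of 297 pigs in 9 number series. The animal number closes each sample title, and a series is the set of numbers with the same first digits. What the digits stand for is not given in the labels. Series 27 was singled out for having the lowest mean loin eye area (LEA) of the 9 series, and the rule uses no expression value. All animals were adult German Landrace pigs with no treatment named, and the liver was taken at slaughter. Sex, carcass weight, herd, slaughter day and array batch were not in the labels, so whatever these add to a difference between the series cannot be told apart from the series itself. The animal numbers of series 27 ran from 2705 to 2733, and those of series 23 from 2302 to 2394.

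The liver buffers blood glucose by storing it as glycogen after a meal and by releasing glucose between meals, when it also makes new glucose from amino acids. It turns surplus carbohydrate into fatty acids, triglycerides and cholesterol under the control of insulin and the SREBP transcription factors. Glucagon opposes this. Glucagon and glucocorticoids induce genes of gluconeogenesis and amino acid breakdown, while a separate class of immediate early genes responds within minutes to many signals.

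LEA, the cross-sectional area of the loin muscle, lay between 27.8 and 46.7 cm2 in series 27 (median 35.6 cm2) and between 37.1 and 56.3 cm2 in series 23 (median 45.9 cm2). These values chose series 27 and carry no test. The fat area over the same muscle, which did not enter the choice, was 12.8 ± 4.42 cm2 (SD, n = 20) in series 27 and 14.2 ± 4.32 cm2 (n = 31) in series 23. Both series covered nearly the same range of fat area, and the difference of means did not pass the test (2-sided permutation test, p = 0.259). The deposited ratio of the areas, which is called a meat to fat ratio but equalled fat area over LEA within 0.01 in all 289 pigs with traits, was 0.356 ± 0.134 in series 27 and 0.316 ± 0.117 in series 23 (permutation test, p = 0.271). After adjustment over these 2 tests, p was 0.271 for each. The ratio contains LEA, which chose series 27, so it is a description and its test is not independent of the choice.

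Of 47722 probe sets tested, 8065 (16.9%) differed between the series at a false discovery rate (FDR) of 1% in limma. In series 27, 3646 (7.64%) were higher and 4419 (9.26%) were lower. Most differences were small, with a median absolute difference of 0.34 on the log2 scale among those called, and 131 probe sets (0.275%) differed at least 2-fold, 70 of them higher and 61 lower. A log2 difference of 1 is a 2-fold difference in signal. Reduced to 1 probe set per gene, 3226 of 13755 genes (23.5%) were called, 1555 higher (11.3%) and 1671 lower (12.1%), and the median difference over all these genes was 0.04. With LEA and fat area as covariates, 1424 probe sets were called, and LEA differed between the series by choice. Among pigs with odd numbers 1926 probe sets were called and among pigs with even numbers 1696, with 821 called in both, all in the same direction.

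**Figure D1:**
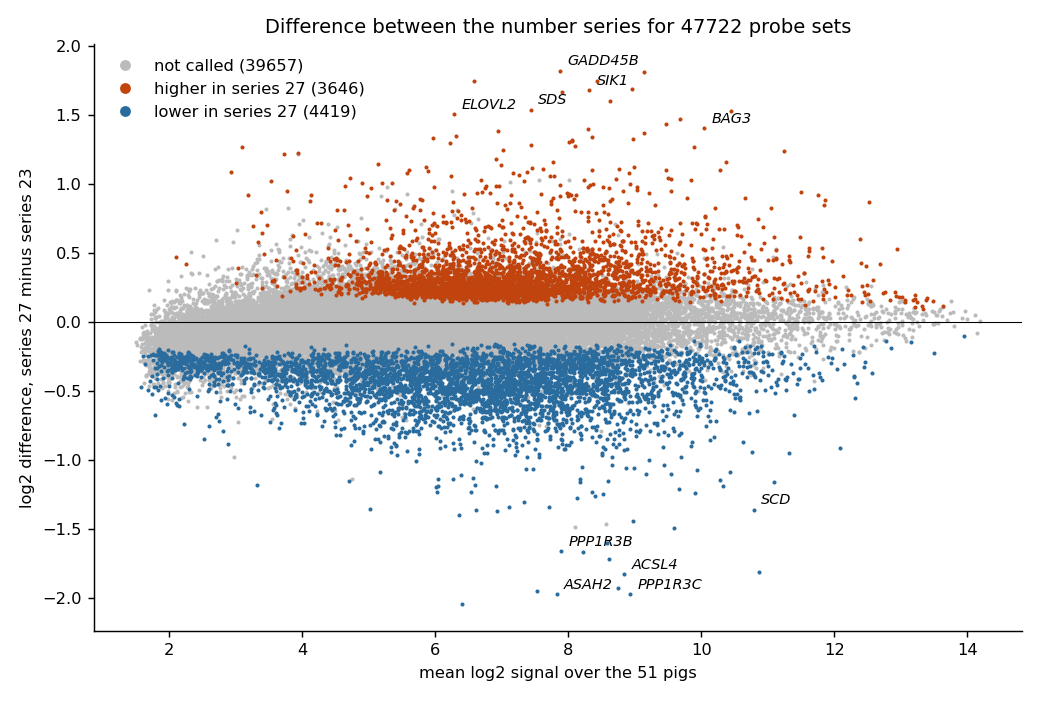
The log2 difference between series 27 and series 23 is plotted against the mean log2 signal over the 51 pigs for 47722 probe sets, coloured by the call at an FDR of 1%. The 3646 higher and 4419 lower probe sets spread over most of the signal range, and 10 genes with large differences are named.

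Each series was also set against the mean of the other 7 series (246 pigs). Series 27 differed from them in 7171 probe sets (15%), and series 23 in 412 (0.863%). These contrasts share their pigs with the direct comparison and are no independent evidence of it. Among the probe sets higher in series 27 than in series 23, series 27 had the highest mean of the 9 series in 2041, whereas series 23 had the lowest in 408. Among those lower in series 27, it had the lowest mean in 1373, whereas series 23 had the highest in 313.

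The largest upward difference among named genes was that of GADD45B. This gene, which encodes a stress-induced regulator of DNA demethylation and MAP kinase signalling, had log2 signals from 6.55 to 10.77 in series 27 (median 9.00) and from 5.80 to 8.89 in series 23 (median 7.05). Of the 20 pigs of series 27, 11 lay above every pig of series 23, while the lowest pig of series 27, at 6.55, lay below the median of series 23. The difference was 1.82 ± 0.24 (SE, adjusted p = 1.07e-07), or 3.53-fold.

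SIK1, a kinase that is induced by cyclic AMP and restrains gluconeogenic transcription, ranged from 7.79 to 10.47 in series 27 (median 9.50) and from 6.64 to 9.40 in series 23 (median 7.70). The groups overlapped, with 10 pigs of series 27 above all of series 23, and the difference was 1.68 ± 0.18 (adjusted p = 2.30e-09). The nuclear receptor NR4A2, another cyclic AMP-responsive gene, ranged from 5.91 to 9.74 in series 27 and from 5.28 to 6.42 in series 23, a difference of 1.35 ± 0.19 (adjusted p = 4.63e-07). It had a wide spread in series 27 and a narrow one in series 23. BAG3, a co-chaperone of HSP70, separated the series more cleanly, with 10.08 to 12.20 (median 10.82) against 8.47 to 10.66 (median 9.47). The difference in BAG3 was 1.40 ± 0.14 (adjusted p = 4.25e-10), and 27 of the 31 pigs of series 23 lay below every pig of series 27. BAG3 was also lower in series 23 than in the other 7 series (difference -0.61, adjusted p = 0.000365).

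SDS, the enzyme that deaminates serine to pyruvate, ranged from 6.34 to 11.65 in series 27 (median 8.29) and from 6.14 to 8.99 in series 23 (median 6.59), a difference of 1.53 ± 0.27 (adjusted p = 1.67e-05). Nearly the whole of the range of series 23 was also covered by series 27, whose pigs differed widely from each other. ELOVL2, an elongase of polyunsaturated fatty acids, showed the same kind of spread, with 4.94 to 11.19 against 4.85 to 6.51 and a difference of 1.50 ± 0.29 (adjusted p = 7.37e-05). The remaining genes among the 15 with the largest upward difference were APOA4 (1.53), an apolipoprotein of triglyceride-rich particles, the mitochondrial carriers SLC25A30 (1.47) and SLC25A25 (1.31), the mTOR inhibitor DDIT4 (1.34), the metallothionein MT1A (1.32), the exonuclease-like protein gene EEPD1 (1.30), the activin antagonist FST (1.28), the alanine transaminase GPT2 (1.26) and the transcription factor MYC (1.16). Of these 15 genes, 14 had their highest mean of the 9 series in series 27, and APOA4 was the exception.

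**Figure D2:**
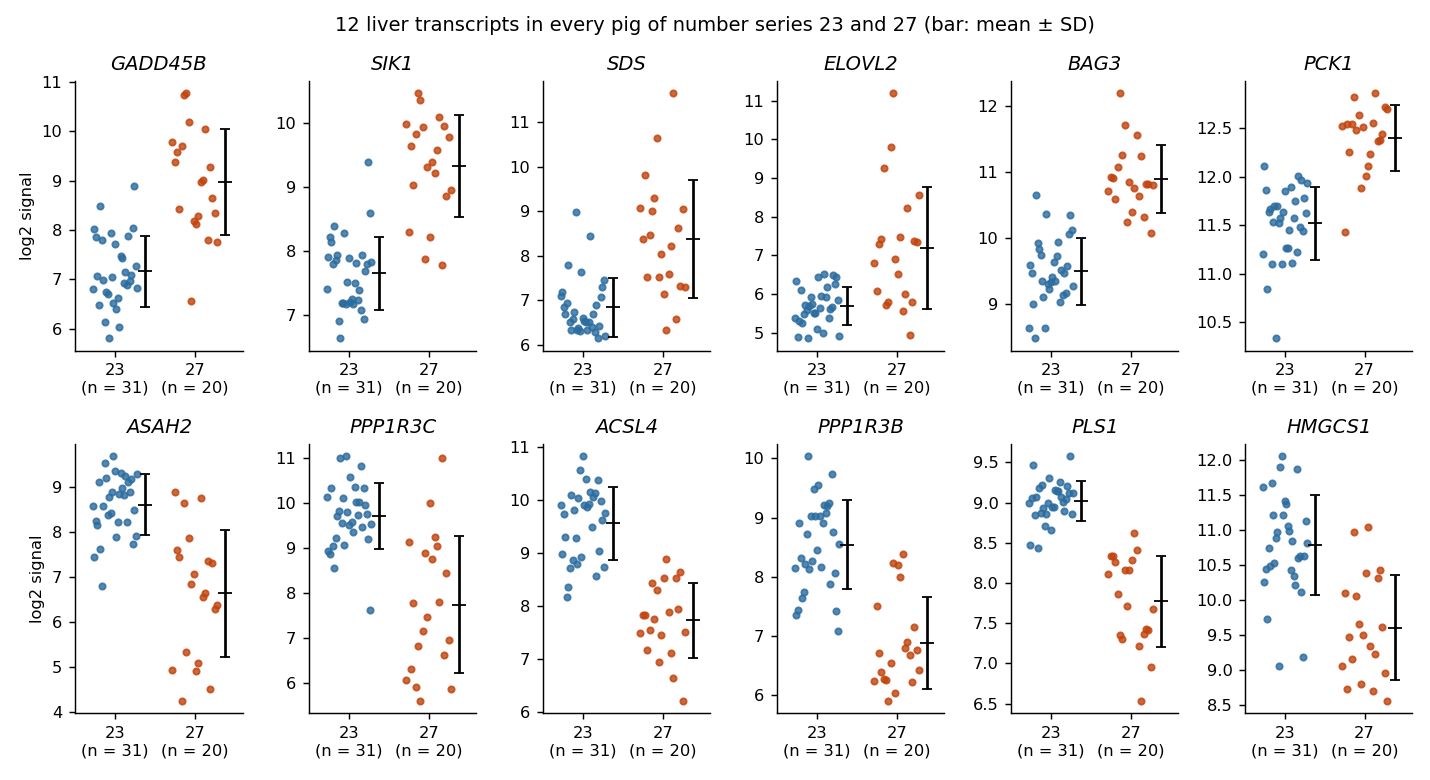
Log2 signals of 12 transcripts are plotted for every pig of series 23 (n = 31) and series 27 (n = 20), with bars for the mean ± SD. The upper row, from GADD45B to PCK1, was higher in series 27 and the lower row was lower, with overlapping ranges in every panel.

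Among the lower genes, ASAH2 and PPP1R3C had the largest differences. ASAH2, a neutral ceramidase, ranged from 4.24 to 8.89 in series 27 (median 6.74) and from 6.80 to 9.68 in series 23 (median 8.77), a difference of -1.97 ± 0.28 (adjusted p = 4.71e-07). The pigs of series 27 were scattered over the whole range, and 10 of them lay below all pigs of series 23. ACSL4, which activates arachidonic acid, ranged from 6.21 to 8.88 (median 7.79) against 8.17 to 10.83 (median 9.76), with 24 pigs of series 23 above every pig of series 27. The difference in ACSL4 was -1.83 ± 0.19 (adjusted p = 7.52e-10), and all 3 of its probe sets were lower.

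PPP1R3C and PPP1R3B encode regulatory subunits that bring protein phosphatase 1 to glycogen and so favour glycogen synthesis. PPP1R3C ranged from 5.59 to 10.99 in series 27 (median 7.62) and from 7.62 to 11.04 in series 23 (median 9.73), a difference of -1.97 ± 0.30 (adjusted p = 1.83e-06). PPP1R3B ranged from 5.90 to 8.38 (median 6.70) against 7.08 to 10.04 (median 8.56), a difference of -1.66 ± 0.21 (adjusted p = 4.42e-08). Of the 20 pigs of series 27, 10 lay below every pig of series 23 in PPP1R3C and 14 did so in PPP1R3B, and the others lay within its range.

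PLS1, an actin-bundling protein, had the narrowest overlap among the 30 genes with the largest differences, with 6.53 to 8.62 in series 27 and 8.43 to 9.58 in series 23. Of the pigs of series 23, 29 lay above every pig of series 27, and the difference was -1.24 ± 0.11 (adjusted p = 2.30e-11). TLR3, a receptor for double-stranded RNA, ranged from 8.95 to 11.58 in series 27 and from 10.91 to 12.54 in series 23, a difference of -1.16 ± 0.13 (adjusted p = 5.74e-09), and series 23 had its highest mean of the 9 series. The remaining lower genes among the 15 were the xenobiotic-metabolising CYP1A1 (-1.49), the retinaldehyde dehydrogenase ALDH1A1 (-1.44), the fatty acid desaturase SCD (-1.36), the carbonic anhydrase CA3 (-1.31), the G protein regulator RGS16 (-1.27), the lipid kinase PIK3C2G (-1.24), the arrestin-related ARRDC3 (-1.23), GPAM (-1.21), which starts triglyceride synthesis, and HMGCS1 (-1.19), which makes the precursor of mevalonate. Of the 15 lower genes, 12 had their lowest mean of the 9 series in series 27. Probe sets of close relatives, as in the CYP1A, metallothionein and globin families, may share signal, and their values are uncertain for that reason.

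**Figure D3:**
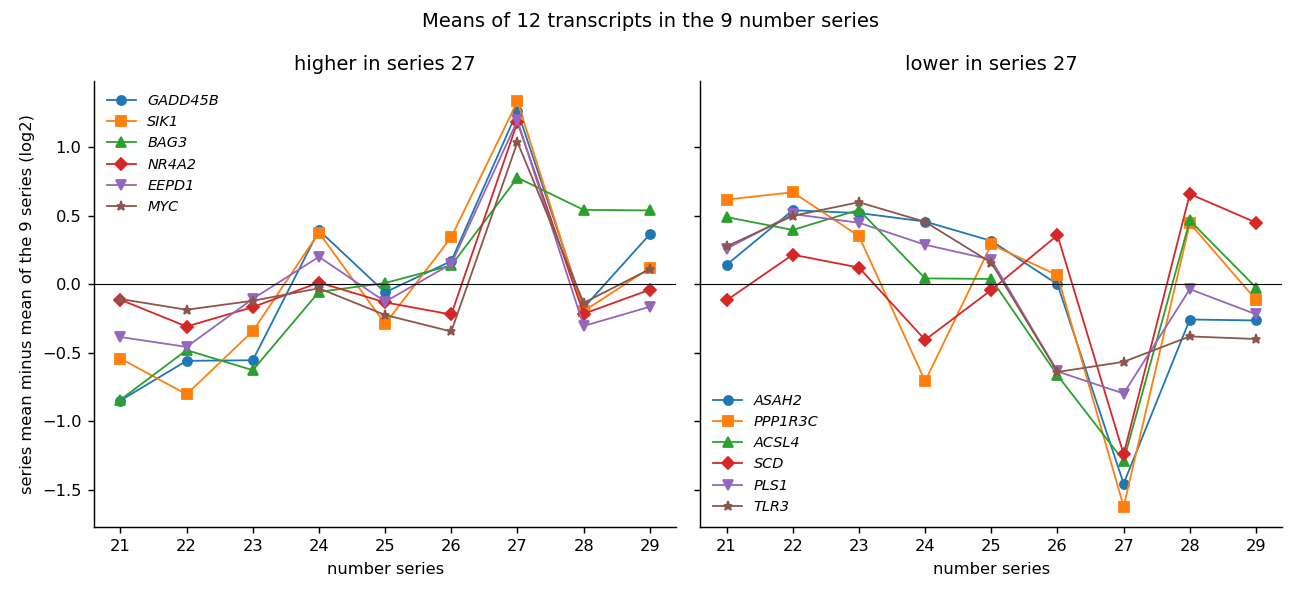
Means of 12 transcripts in each of the 9 number series are plotted as the distance from the mean of the 9 series on the log2 scale. Series 27 stands at the extreme for every gene shown except TLR3, which was lower in series 26, and series 23 lies among the other series for most of them.

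Ranges that did not touch were rare. They occurred in 2 of 47722 probe sets (0.00419%), which were picked out after their values had been seen. COX6C, a subunit of cytochrome c oxidase, ranged from 9.10 to 9.86 in series 27 and from 8.39 to 9.02 in series 23, a difference of 0.70 ± 0.06 (adjusted p = 4.80e-13). RPLP2, a protein of the ribosomal stalk, ranged from 9.20 to 10.13 and from 8.64 to 9.12, a difference of 0.66 ± 0.05 (adjusted p = 4.80e-13). These were differences of modest size in genes with little spread.

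Gene lists put these differences in context, beside 11.3% of all genes higher and 12.1% lower. Immediate early and AP-1 genes stood higher in series 27, with 18 of 27 measured genes higher, 1 lower and a median difference of 0.47, beside 0.04 over all genes. ZFP36 (0.97 ± 0.21), which degrades cytokine mRNA, and NR4A1 (0.92 ± 0.15) were among those that rose, as were the growth-arrest gene GADD45G (0.92) and JUN (0.48), a component of AP-1. FOS, which pairs with JUN, did not pass the test (0.47 ± 0.26, adjusted p = 0.16), and the phosphatase DUSP2 was lower (-0.47). One probe set of DUSP2 was higher and another lower.

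Of 23 measured glucocorticoid receptor targets, 14 were higher and none was lower, with a median of 0.32. SGK1, a kinase that regulates sodium channels, was higher by 1.08 ± 0.19, IGFBP1, which binds insulin-like growth factors, by 0.87 ± 0.15 and TAT, which starts tyrosine breakdown, by 0.30 ± 0.07. FKBP5, a chaperone of the receptor, did not pass the test (0.11 ± 0.17, adjusted p = 0.65). This list shares SDS, PCK1, G6PC and DUSP1 with other lists, so its count is not independent of theirs.

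**Figure D4:**
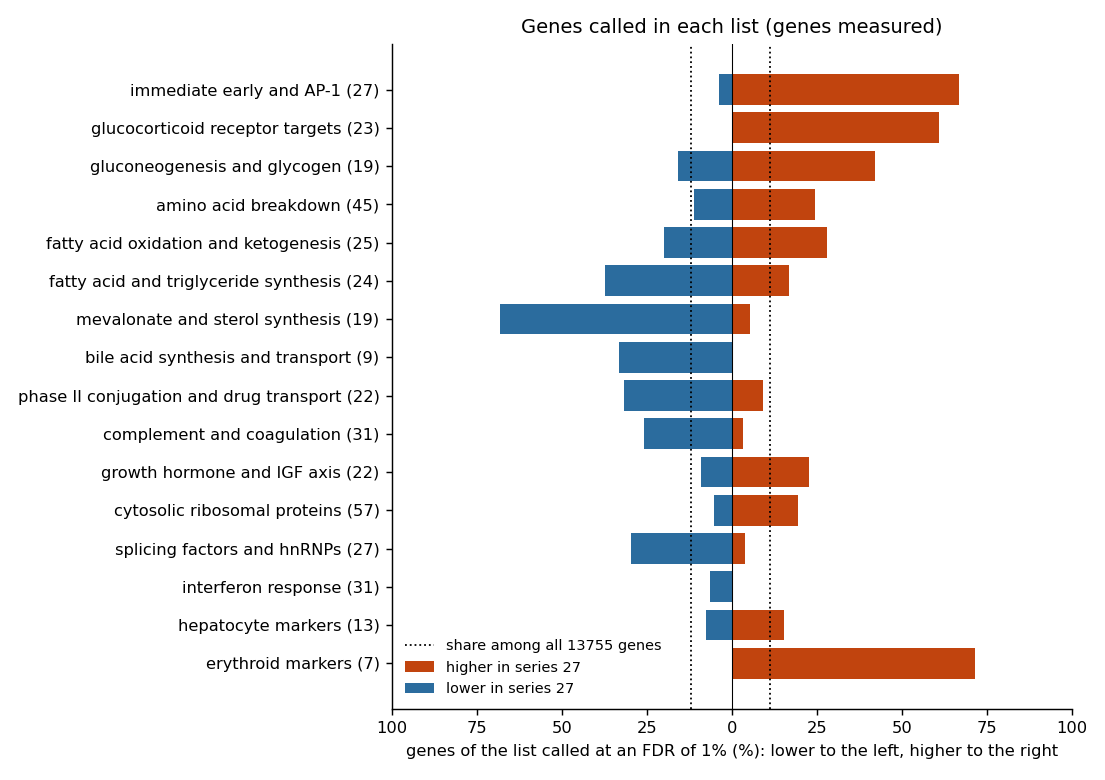
Shares of the measured genes of 16 lists called higher (right) or lower (left) in series 27 at an FDR of 1% are drawn as bars, with dotted lines at the shares among all 13755 genes (11.3% higher, 12.1% lower). Immediate early genes (18 of 27 higher) and mevalonate genes (13 of 19 lower) lie far beyond the dotted lines.

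Among 19 genes of gluconeogenesis and glycogen metabolism, 8 were higher in series 27, 3 were lower and 8 did not pass the test, with a median of 0.22. PCK1, which commits oxaloacetate to gluconeogenesis, ranged from 11.43 to 12.86 in series 27 (median 12.49) and from 10.33 to 12.11 in series 23 (median 11.57), and 16 pigs of series 27 lay above all of series 23. The difference was 0.88 ± 0.10 (adjusted p = 8.73e-09), although of its 5 probe sets 2 were higher and 1 was lower. G6PC, which releases free glucose, was higher by 0.52 ± 0.08 (adjusted p = 4.25e-06), and CREM, a cyclic AMP-responsive factor, by 1.05 ± 0.20. The 3 lower genes were PPP1R3C, PPP1R3B and the glycogen branching enzyme GBE1 (-0.43 ± 0.10), while the liver glycogen synthase GYS2 was higher (0.48 ± 0.09).

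Genes of cholesterol synthesis were mostly lower in series 27. Of 19 measured genes of the mevalonate and sterol pathway, 13 were lower and 1 was higher, with a median of -0.39. Besides HMGCS1, the lower genes included STARD4 (-0.66), a sterol carrier, CYP51A1 (-0.64), which demethylates lanosterol, FDFT1 (-0.48) and FDPS (-0.47). INSIG1, which retains the SREBP complex in the endoplasmic reticulum, was the gene that rose (0.74 ± 0.14, adjusted p = 5.04e-05). SQLE, the squalene epoxidase, did not pass (-0.38 ± 0.12).

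The list of fatty acid and triglyceride synthesis was split between the directions. Among its 24 measured genes, which include lipid droplet proteins, 9 were lower and 4 higher, with a median of -0.18. FASN, the fatty acid synthase, ranged from 10.52 to 12.08 in series 27 and from 11.54 to 12.99 in series 23, and 28 of 31 pigs of series 23 lay above every pig of series 27. The difference was -0.92 ± 0.10 (adjusted p = 1.69e-09), and ACACA, which makes malonyl-CoA, was lower as well (-0.79 ± 0.13). The 4 higher genes were LPIN1 (1.11), a phosphatidate phosphatase and coactivator, its relative LPIN2 (0.67), and the lipid droplet proteins PLIN2 (0.72) and CIDEB (0.82). Among 25 genes of fatty acid oxidation and ketogenesis, 7 were higher and 5 lower, beside 11.3% and 12.1% of all genes. CPT1A, which admits long-chain fatty acids into mitochondria, was higher by 1.03 ± 0.16 (adjusted p = 1.50e-06), and the fatty acid binding protein FABP1 was lower (-0.83 ± 0.10).

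Amino acid breakdown had 11 of 45 genes higher and 5 lower, with a median of 0.04, beside 0.04 over all genes. For this list and those that follow, the shares over all genes were 11.3% higher and 12.1% lower. Beside SDS and GPT2, the higher genes included AASS (0.64) of lysine breakdown, and the glycine decarboxylase GLDC was lower (-0.64). Among 9 genes of the urea cycle, ARG2 (0.79), the ornithine carrier SLC25A15 (0.76) and the amino acid transporter SLC7A2 (0.44) were higher, and OTC was lower (-0.49). CYP7A1, the rate-limiting enzyme of bile acid synthesis, was lower (-1.08 ± 0.20, adjusted p = 3.79e-05), and of 9 genes of bile acid synthesis and transport 3 were lower, among them its regulator NR1H4 (-0.64). In the growth hormone and IGF axis of 22 genes, 5 were higher and 2 lower. SOCS2, an inhibitor of growth hormone signalling, was higher by 1.04 ± 0.25 (adjusted p = 0.00107), the receptor gene GHR was lower (-0.53 ± 0.10), and IGF1 itself did not pass (-0.42 ± 0.17, adjusted p = 0.06).

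Counts in other lists stand beside 11.3% of all genes higher and 12.1% lower. Phase I drug metabolism had 2 of 26 genes higher and 3 lower, nuclear receptors of the liver 4 of 23 in each direction, and the interferon response none of 31 higher and 2 lower. Phase II conjugation had 2 of 22 higher and 7 lower, among the latter the thiopurine methyltransferase TPMT (-0.83). Complement and coagulation had 1 of 31 higher and 8 lower, such as the lectin pathway protease MASP2 (-0.56), with a list median of -0.04.

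The liver label was borne out by the mean of its markers. The mean over 13 hepatocyte markers lay between 12.12 and 12.34 in series 27 and between 12.13 and 12.28 in series 23. Of the 13, 2 were higher and 1 was lower. AHSG, also among the 13, had a low signal, between 2.58 and 3.22 in series 27. Markers called higher were 1 of 10 for Kupffer cells and macrophages, 3 of 18 for T and NK cells and 2 of 10 for neutrophils and monocytes. They were 0 of 7 for B and plasma cells, 0 of 11 for endothelial, 1 of 12 for stellate and 1 of 9 for bile duct cells. At most 1 was lower in any of these lists, beside 11.3% of all genes higher and 12.1% lower. Erythroid markers had a larger share, with 5 of 7 higher, 6 of 7 differences positive and a median of 0.32. Their mean lay between 6.59 and 7.64 in series 27 and between 6.44 and 7.27 in series 23. ALAS2, the erythroid enzyme of heme synthesis, was higher by 0.89 ± 0.19 and the globin HBB by 0.46 ± 0.10. With the erythroid mean as a covariate 3606 probe sets were called in place of 8065, and whether red cells in the tissue contributed was not tested further. In whole liver a lower signal can come from fewer cells of a type or from less RNA per cell, which cannot be told apart here.

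The pigs of series 27 were not alike. On the first principal component of all probe sets, which held 14.9% of the variance, they ranged from -72.6 to 7.55 and the pigs of series 23 from -10.3 to 42.8. The 7 pigs numbered 2724 or higher lay between -72.6 and -39.2, and the other 13 between -39.2 and 7.55. Correlations between arrays spanned 0.956 to 0.988 within series 27, 0.959 to 0.981 within series 23 and 0.946 to 0.981 between them. The background control spots were dimmer in series 27, with 26 of 69 called lower, none higher and a median difference of -0.10. Of the 54 other controls, which include spiked-in transcripts, 15 were higher and none was lower, with a median of 0.01 and a largest difference of 0.68. With the mean of the background controls as a covariate 11548 probe sets were called, and with that of the hybridisation controls 6442. The Y-linked transcripts EIF1AY (-0.15 ± 0.09, adjusted p = 0.24) and SRY (0.09 ± 0.08, adjusted p = 0.42) did not pass the test. Among X-linked genes, USP9X (-0.61), ZFX (-0.55) and EIF2S3 (-0.41) were lower and KDM5C (0.32) was higher, and the sex of the pigs was not in the labels.

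**Figure D5:**
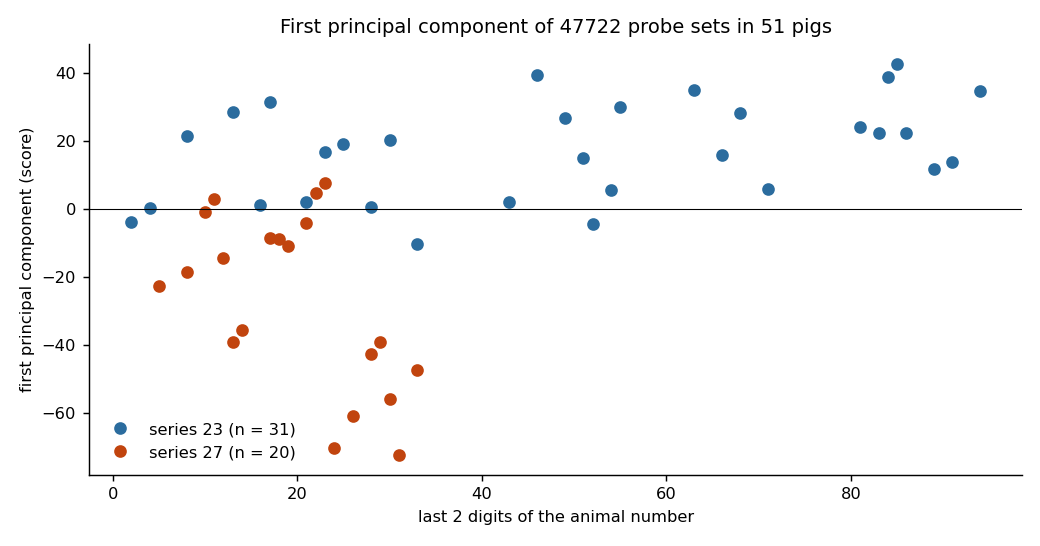
Scores on the first principal component of 47722 probe sets are plotted against the last digits of the animal number for 20 pigs of series 27 and 31 of series 23. The 7 pigs of series 27 with the highest numbers lie at -39.2 or below, and no pig of series 23 lies below -10.3.

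Series 27 was also divided at its median number, and each set of 10 pigs was compared with all of series 23. This comparison was added after the scores had been seen, but its cut is not the one at 2724. The upper set also holds pigs 2721, 2722 and 2723, which scored -4.28, 4.78 and 7.55 on the first principal component. The lower set holds pigs 2713 and 2714, at -39.2 and -35.6. The sets therefore do not stand for the groups seen on that component. The lower numbers (up to 2719) gave 2623 called probe sets and the upper numbers (from 2721) 8634, and 1803 were called in both, 1802 of them in the same direction. Of the 8065 probe sets, 8059 had the same sign in both sets. The 8065 were called with the pigs of both sets together. Both sets were also compared with the same pigs of series 23. Agreement in sign between the sets is therefore largely built in and is no independent evidence of the differences. At the level of genes, 3.78% were higher and 4.69% lower with the lower numbers, and 12% and 13.2% with the upper numbers.

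Some genes named above differed from series 23 in both sets. PPP1R3C differed by -2.60 in the lower and -1.34 in the upper numbers, SIK1 by 1.82 and 1.53, PCK1 by 0.84 and 0.92, and FASN by -0.82 and -1.01, each past the threshold. Mevalonate genes had 11 of 19 lower in the lower numbers and 9 in the upper numbers, and immediate early genes 10 and 13 of 27 higher. FST was called in the lower numbers (1.97) and not in the upper ones (0.59, adjusted p = 0.0127), and MT1A was called in the upper numbers and not in the lower ones (1.30, adjusted p = 0.0109). JUN and SOCS2 passed in neither set. Of the 85 genes named in the text, 15 no longer passed the threshold with the upper numbers and 8 with the lower numbers.

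Calls in other lists also differed in number between the sets, as did those over all genes. Cytosolic ribosomal proteins had 11 of 57 genes higher and 3 lower with all 20 pigs, 1 higher and 1 lower with the lower numbers, and 12 higher and 2 lower with the upper numbers, beside 3.78% and 12% of all genes higher. Splicing factors and hnRNPs had 1 of 27 higher and 8 lower in all, among them LUC7L3 (-0.87) and CLK1 (-0.79), against 3 lower in the lower numbers and 10 in the upper ones, beside 4.69% and 13.2% of all genes lower. Amino acid breakdown had 12 of 45 higher in the lower numbers and 3 in the upper ones. Erythroid markers had 3 of 7 higher in the lower numbers and 1 in the upper ones, with medians of 0.35 and 0.31. ALAS2 (0.62, adjusted p = 0.0314) and HBB (0.39, adjusted p = 0.0241) did not pass in the upper numbers. None of these differences between the sets was tested.

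Differences among pigs within a series were followed for 6 genes against LEA and fat area, and for 4 pairs of genes, 32 relations in all, chosen with the data known. PPP1R3C and PPP1R3B rose and fell together in series 27 (r = 0.69, Spearman's rho = 0.75, adjusted permutation p = 0.00507 and 0.00147) and in series 23 (r = 0.86, rho = 0.84, adjusted p = 0.00016 for each). SIK1 ran with SLC25A25 in series 27 (r = 0.81, rho = 0.85) and in series 23 (r = 0.74, rho = 0.71), with adjusted p of at most 0.00032. SIK1 and PPP1R3C ran in opposite directions in series 27 (r = -0.74, rho = -0.67, adjusted p = 0.00109 and 0.00837) and in series 23 (r = -0.68, rho = -0.70, adjusted p = 0.00056 and 0.00016). Once the 2 most extreme pigs for the first gene were left out, r of these 3 pairs lay between 0.66 and 0.86 in size in both series.

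HMGCS1 and SCD were related in series 27 (r = 0.58, rho = 0.53, adjusted p = 0.0298 and 0.0750) and not detectably in series 23 (r = 0.14, rho = 0.14, adjusted p = 0.653 and 0.625). Of the 24 relations with a trait, 2 passed an adjusted p of 0.05 by r and both were with LEA in series 27. SIK1 was lower in pigs of larger LEA (r = -0.62, rho = -0.49, adjusted p = 0.0169 and 0.112), and PPP1R3C was higher (r = 0.56, rho = 0.48, adjusted p = 0.0377 and 0.125). Neither passed by rho. Once the 2 pigs with the most extreme LEA were left out, r shrank to -0.36 and 0.40 with its sign kept. The size of both thus depended in part on those pigs, and the remaining relation was not tested. In series 23, r with LEA was 0.13 for SIK1 and -0.20 for PPP1R3C.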

How the data were processed

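Affymetrix Snowball arrays measured the liver RNA of 297 pigs, each on an array of its own. The deposited values were log2 signals that the authors made by robust multichip averaging over all arrays, rounded to 2 decimals. The submitters' notes name GCOS 1.1.1. Arrays have no read depth, and precision depends on how many there are.

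Of 47845 probe sets, 123 AFFX controls were left out. The platform table named 1 gene for 26426 of the others and none for 21296. Series 27 and 23 were compared with limma 3.58.1 (R 4.3.3), Benjamini-Hochberg adjusted over 47722 probe sets, at an FDR of 1%, with no covariate. The contrasts with the other 7 series came from a fit of all 9. Each gene was represented by its probe set with the highest mean over the 51 pigs. The text names the 15 genes with the largest differences in each direction (no LOC symbols) and members of the gene lists. Members and lists were chosen with earlier results of these data known. Trait differences and relations had 100000 permutations, with 1e-05 as the smallest p. Alternatives changed the filter, normalization, variance model, covariates, test, array quality, pigs and threshold. On simulated data, 19.1% of differences of 0.25, 80.0% of 0.5 and 99.1% of 1 on the log2 scale were recovered. The simulations mixed the pigs of both series and changed far fewer probe sets than were called in the data. Their cut-off at the same FDR was therefore stricter, and these shares need not hold for the data. Gender, carcass weight and the genetic terms that the study adjusted for were not used here.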

Additional observations from a re-analysis of the deposited data

How the results depend on the processing

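Counts of called probe sets (8065 in all, 3646 higher, 4419 lower, 131 past 2-fold) stayed within 1.5 times of these values with brighter probe sets only, array centring, quantile normalization, another variance model, all 9 series in 1 fit, a Y-linked covariate, the Wilcoxon test, array weights, hybridisation controls as a covariate, and without the array least like its series. They moved further as follows, in the order all, higher, lower and past 2-fold. LEA and fat area as covariates gave 1424, 541, 883 and 83. Odd numbers gave 1926, 776 and 1150, and even numbers 1696, 446 and 1250. With 1 probe set per gene, which tests fewer rows, they were 3599, 1806, 1793 and 53. Tested against a difference of 0.5, they were 34, 13, 21 and 34. Chosen after the data had been seen, the erythroid covariate gave 3606, 1415, 2191 and 76, the background control covariate 5542 higher, and the lower numbers of series 27 gave 2623, 1169 and 1454, and the upper numbers 207 past 2-fold. Fewer pigs entered the splits, and for the other settings the cause was not tested.

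Of 85 named genes, 38 no longer passed the threshold with LEA and fat area as covariates, 21 with odd numbers, 36 with even numbers, 62 against 0.5, 21 with the erythroid covariate, 15 with the upper and 8 with the lower numbers of series 27, 10 with hybridisation controls as a covariate, 2 with the Wilcoxon test, and 1 each with array centring and without the least alike arrays. With the erythroid covariate ALAS2 (-0.050) and HBB (-0.0062), which belong to the covariate, changed sign, and no other called gene did in any setting. The trait differences kept their direction and stayed short of the threshold. No paired analysis was possible because the series share no animal numbers. Differences of 0.25 were recovered in 19.1% of simulated cases, in which fewer probe sets were changed than were called here. The share in the data may differ, and small differences may be missed.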
